A study of Mus musculus with 18 samples.

Results

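Neuromesodermal progenitors are cells at the caudal end of the vertebrate embryo that supply both the spinal cord and the paraxial mesoderm while the trunk and tail elongate. They are recognised by joint expression of T, a mesodermal factor, and Sox2, a neural factor. Wnt and Fgf signals of the tail bud maintain them, and as elongation ends they are used up. Hoxb13 sits at the 5′ end of the HoxB cluster, and genes of its paralogue group are known for slowing or ending axis extension in mouse. The 7 genes described here are T, Nkx1-2, Evx1, Sox2, Sox3, Sall4 and Ptk7. They were chosen by name as markers of progenitor identity, with earlier results of these data known, and are 7 of the 55138 genes with a deposited level.

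The RNA came from whole mouse embryos with the head removed, 18 libraries in 6 groups of 3. E9.5 embryos were either homozygous for the HoxB Del(i9-13) allele or wild type littermates. At E10.5 they were homozygous Del(i9-13), homozygous Del(i9-13):Hoxb13hd, which carries both changes, homozygous Hoxb13hd, and wild type littermates. The labels state neither what hd stands for nor whether a library is 1 embryo or a pool, so each p-value speaks of the spread between these libraries. Xist, the RNA of the inactive X chromosome in females, ran from 0.0726 to 112 FPKM (a level corrected for transcript length and library size) within E9.5 wild type and differed widely within each E10.5 group too, so the 3 replicates of those groups were not all repeat libraries of 1 RNA sample. In E9.5 Del(i9-13) all 3 libraries were low in Xist. The series title concerns insulation of Hoxb13 and the timing of tail growth. Since the tail bud is a small part of such an embryo, fewer progenitor cells and less RNA per cell cannot be told apart in any value below.

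Library totals ran from 19.3 to 35.9 M counts. The deletion in the genotype labels was checked on Hoxb13 and on Gm53, a transcript between Hoxb9 and Hoxb13. The hd change was not checked, since neither transcript tells it apart. Hoxb13 was low in both Hoxb13hd and wild type, and Gm53 was present in both. At E9.5 Hoxb13 averaged 42 ± 3.79 CPM (counts scaled to library size) in Del(i9-13) and 0.0927 ± 0.0523 CPM in wild type (SD, n = 3 each). At E10.5 it averaged 9.60 ± 3.29 CPM in Del(i9-13), 11.1 ± 1.06 CPM in Del(i9-13):Hoxb13hd, 0.0510 ± 0.0529 CPM in Hoxb13hd and 0.434 ± 0.607 CPM in wild type (SD, n = 3 each). Gm53 had 0 counts in the 6 E10.5 libraries with the deletion and 371 to 1076 counts in the 6 without it. Among forebrain and midbrain markers, Otx2, Six3, Six6, Rax, Barhl2 and Dmbx1 had group means of at most 0.0589 FPKM. Group means were 0.200 to 0.377 FPKM for Emx1, 0.385 to 0.600 FPKM for Hesx1, 1.49 to 3.51 FPKM for Emx2 and 2.40 to 9.29 FPKM for Lhx2. Emx2 and Lhx2 are also known from the urogenital ridge and the limb bud. Poly(A) enrichment was used at E9.5 and ribo-depletion at E10.5, so a difference in level between stages cannot be told apart from library type. Genotypes were compared within a stage, and a further test set the deletion effects of the stages against each other.

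T (Brachyury, chr17:8434423-8442496, plus strand, mm10) encodes the T-box factor required for posterior mesoderm and notochord. Its level at E9.5 was 25.4, 24.5 and 25.3 FPKM in Del(i9-13), against 5.17, 18.1 and 16.2 FPKM in wild type. All 3 deletion libraries lay above all 3 wild type libraries, and wild type replicate 1 stood far below the other two. At E10.5 T had 3.95, 2.87 and 3.13 FPKM in Del(i9-13), 4.61, 5.40 and 4.68 FPKM in Del(i9-13):Hoxb13hd, 6.81, 10.7 and 10.2 FPKM in Hoxb13hd, and 5.36, 4.71 and 1.26 FPKM in wild type. The Hoxb13hd libraries were above every other E10.5 library, while the wild type range covered all of the Del(i9-13) values.

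Nkx1-2 (chr7:132594878-132599637, minus strand) encodes a homeobox factor of the caudal epiblast and pre-neural tube. At E9.5 it had 5.94, 6.09 and 6.63 FPKM in Del(i9-13), against 4.07, 6.37 and 5.73 FPKM in wild type, and the groups overlapped. At E10.5 it had 0.957, 0.490 and 0.886 FPKM in Del(i9-13), 1.11, 1.02 and 0.749 FPKM in Del(i9-13):Hoxb13hd, 2.15, 3.15 and 2.66 FPKM in Hoxb13hd, and 1.21, 2.02 and 0.595 FPKM in wild type. Hoxb13hd was again above every other E10.5 library, and wild type replicate 3 was the lowest of its group, as for T.

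Evx1 (chr6:52313498-52318378, plus strand) encodes an even-skipped homeobox factor of the primitive streak and tail bud that also marks a class of spinal interneurons. At E9.5 it had 3.27, 4.15 and 3.97 FPKM in Del(i9-13), against 1.59, 3.26 and 3.34 FPKM in wild type. Apart from the first wild type library, the levels of both groups lay close together. At E10.5 it had 0.635, 0.374 and 0.535 FPKM in Del(i9-13), 0.733, 0.684 and 0.671 FPKM in Del(i9-13):Hoxb13hd, 0.782, 1.57 and 1.45 FPKM in Hoxb13hd, and 0.648, 0.760 and 0.295 FPKM in wild type. The first Hoxb13hd library lay just above the highest wild type library on this scale, and just within the wild type range on the CPM scale. The counts behind these values were small, 313 over the Hoxb13hd group and 158 over wild type.

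T, Nkx1-2 and Evx1 were correlated across the 12 E10.5 libraries (r of 0.87 to 0.93), and their promoter sequences are shown for that reason. RefSeq (GRCm38.p6) gave the 250 bases before and 50 after the start for 5 of the 7 genes. Each sequence runs 5′ to 3′ on the gene's strand.
T, chr17:8434173-8434472, plus strand: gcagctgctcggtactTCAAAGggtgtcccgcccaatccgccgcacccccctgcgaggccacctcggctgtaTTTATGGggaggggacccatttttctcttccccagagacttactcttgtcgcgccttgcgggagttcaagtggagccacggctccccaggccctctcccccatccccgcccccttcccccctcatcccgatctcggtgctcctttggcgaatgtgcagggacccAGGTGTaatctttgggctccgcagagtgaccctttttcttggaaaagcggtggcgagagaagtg
Nkx1-2, chr7:132599588-132599887, minus strand: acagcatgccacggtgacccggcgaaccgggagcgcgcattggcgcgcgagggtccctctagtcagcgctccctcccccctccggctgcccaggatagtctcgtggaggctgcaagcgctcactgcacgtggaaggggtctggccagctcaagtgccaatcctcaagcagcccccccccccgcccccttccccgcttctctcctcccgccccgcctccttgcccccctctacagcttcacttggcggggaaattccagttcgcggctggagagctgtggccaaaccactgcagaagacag
Evx1, chr6:52313248-52313547, plus strand: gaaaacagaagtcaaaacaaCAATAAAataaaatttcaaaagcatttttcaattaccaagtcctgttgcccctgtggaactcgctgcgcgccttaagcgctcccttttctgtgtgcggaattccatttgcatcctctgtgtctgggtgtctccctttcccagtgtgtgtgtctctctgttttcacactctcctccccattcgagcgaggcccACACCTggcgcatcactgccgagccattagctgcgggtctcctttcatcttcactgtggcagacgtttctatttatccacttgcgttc
Capitals mark matches to 4 words searched on both strands, which did not overlap each other in these windows: CTTTGA, the core of Tcf and Lef sites that read Wnt signals, AGGTGT, a T-box core, and TTTATGG and TTTATTG, words of posterior Hox and Cdx sites. The T window held TCAAAG, the reverse complement of the Tcf and Lef core, at position -234 from the start, TTTATGG at -178 and AGGTGT at -14. The Evx1 window held CAATAAA at -230 and ACACCT at -38, each the reverse complement of a word searched. The Nkx1-2 window held none of the 4 words. Among 27025 promoter windows of this length, 16.2% held the Tcf and Lef core, 13.9% the T-box core, 2.76% TTTATGG and 4.84% TTTATTG, so the shorter words are common, and a match is a description of letters.

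Sox2 (chr3:34650405-34652461, plus strand) encodes an HMG-box factor of neural progenitors along the whole neural tube as well as of the bipotent cells. At E9.5 it had 18.3, 21.5 and 16.5 FPKM in Del(i9-13), against 18.5, 16.4 and 17.6 FPKM in wild type. At E10.5 it had 14.6, 16.8 and 16.3 FPKM in Del(i9-13), 16.9, 16.6 and 16.0 FPKM in Del(i9-13):Hoxb13hd, 17.1, 17.4 and 21.5 FPKM in Hoxb13hd, and 17.0, 19.0 and 18.2 FPKM in wild type. The 18 values were within a narrow band at both stages, and the highest at E10.5 came from 1 Hoxb13hd library.

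Sox3 (chrX:60891366-60893430, minus strand) encodes the X-linked SoxB1 relative of Sox2, also a neural progenitor factor. At E9.5 it had 8.26, 9.20 and 7.57 FPKM in Del(i9-13), against 7.76, 7.29 and 6.94 FPKM in wild type. At E10.5 it had 2.30, 2.83 and 2.04 FPKM in Del(i9-13), 3.72, 3.11 and 3.09 FPKM in Del(i9-13):Hoxb13hd, 3.40, 3.17 and 4.22 FPKM in Hoxb13hd, and 2.03, 3.28 and 3.11 FPKM in wild type. All 3 Del(i9-13):Hoxb13hd libraries lay above all 3 Del(i9-13) libraries, and the wild type range overlapped every other group.

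Sall4 (chr2:168748332-168767201, minus strand) encodes a zinc-finger factor of pluripotent and early progenitor cells. At E9.5 it had 30.8, 27.2 and 31.3 FPKM in Del(i9-13), against 20.8, 24.9 and 20.2 FPKM in wild type, and the groups were separate. At E10.5 it had 19.4, 11.9 and 15.7 FPKM in Del(i9-13), 18.3, 19.7 and 20.1 FPKM in Del(i9-13):Hoxb13hd, 26.7, 26.3 and 22.9 FPKM in Hoxb13hd, and 16.3, 19.6 and 16.2 FPKM in wild type. The Hoxb13hd libraries stood above the other 9 libraries of that stage.

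Ptk7 (chr17:46564471-46629504, minus strand) encodes a transmembrane pseudokinase of planar cell polarity needed for axis elongation, and was the most abundant of the 7 genes by FPKM. At E9.5 it had 61.9, 54.4 and 60.4 FPKM in Del(i9-13), against 51.0, 58.6 and 59.0 FPKM in wild type. At E10.5 it had 37.8, 31.7 and 33.1 FPKM in Del(i9-13), 42.4, 43.8 and 46.5 FPKM in Del(i9-13):Hoxb13hd, 46.2, 44.2 and 44.4 FPKM in Hoxb13hd, and 35.6, 35.6 and 33.2 FPKM in wild type. Both E10.5 groups with the hd change lay above both groups without it, with no overlap. The share of all genes split in this way was not computed.

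**Figure D1:**
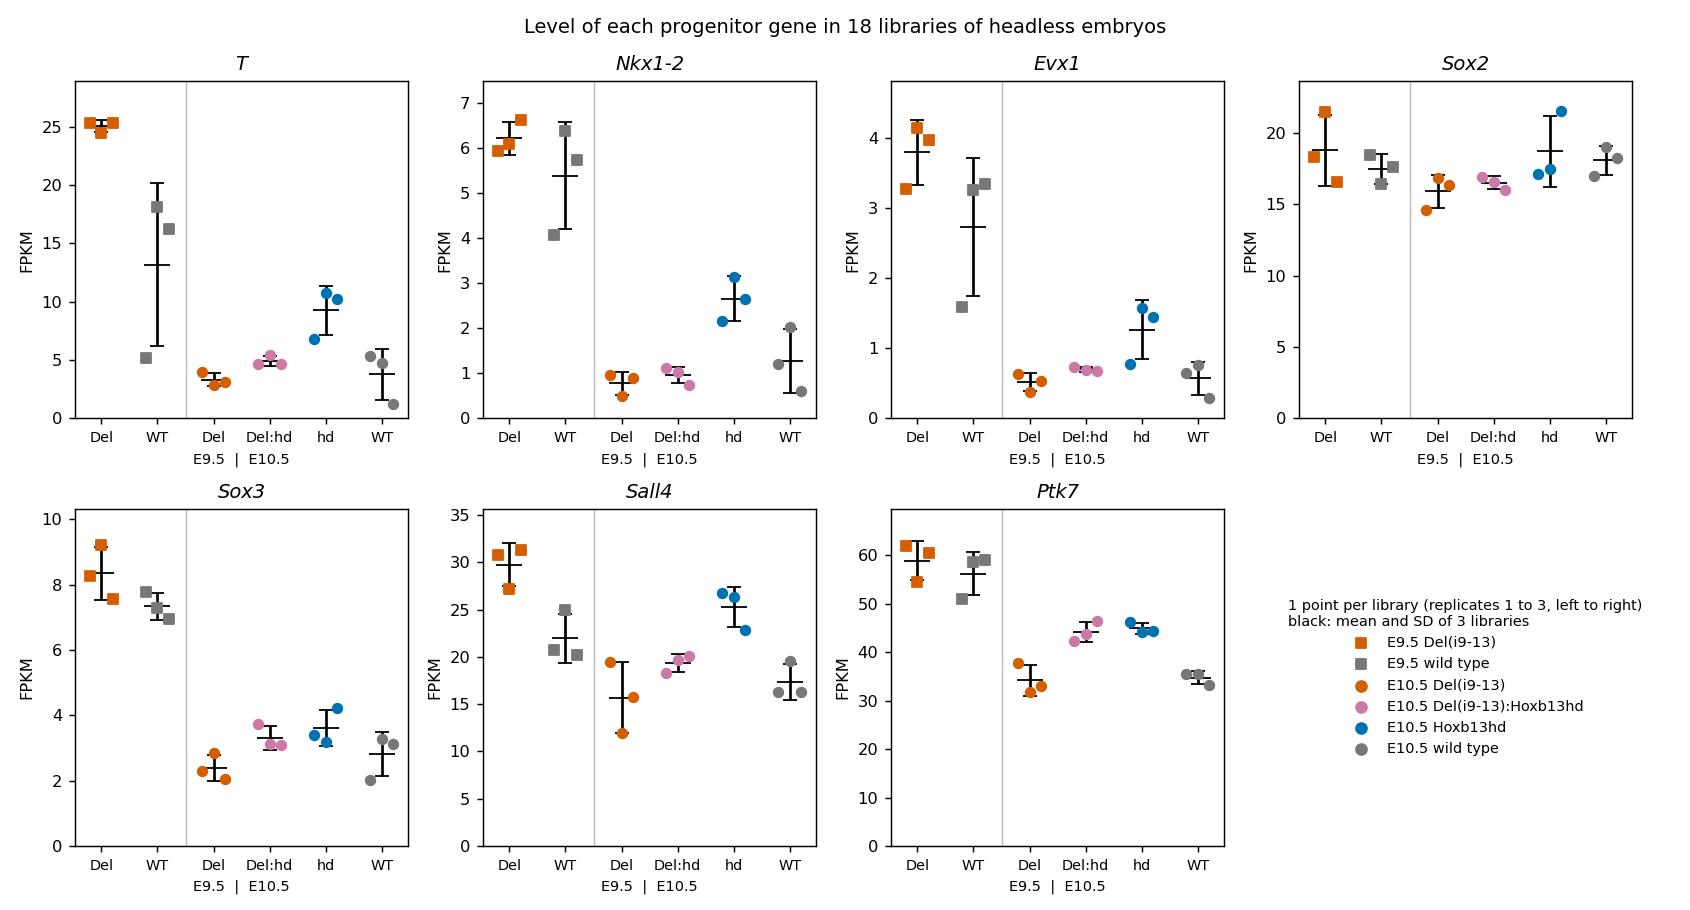
FPKM (y axis) of each of the 7 genes in every library, by group (x axis), with 1 point per library and the mean and SD of 3 libraries in black; T, Nkx1-2 and Sall4 stand highest in Hoxb13hd among the E10.5 libraries. The low E9.5 wild type replicate 1 of T (5.17 FPKM) and the low E10.5 wild type replicate 3 (1.26 FPKM) set the wide wild type error bars.

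Hoxb13hd had the highest mean level of the 4 E10.5 groups for all 7 genes, and the order of the groups was the same by CPM in 14 of 14 pairs of gene and stage. Below Hoxb13hd, T, Evx1, Sox3, Sall4 and Ptk7 ran in the order Del(i9-13):Hoxb13hd, wild type and Del(i9-13), and neighbouring groups in that order overlapped, except that Ptk7 was separate between Del(i9-13):Hoxb13hd and wild type. Nkx1-2 and Sox2 had wild type next after Hoxb13hd, and Del(i9-13) had the lowest mean for each of the 7. The share of all genes with the same highest or lowest group was not computed, and the 7 genes are not independent of each other. Spread between replicates differed by gene: the coefficient of variation in E10.5 wild type was 58.3% for T and 56.0% for Nkx1-2, against 3.97% for Ptk7 and 5.64% for Sox2.

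In Hoxb13hd embryos at E10.5, Sall4 and Ptk7 rose relative to wild type, 2 of the 7 genes at an adjusted p of 0.05. In this comparison 3.01% of the 17202 genes tested were called in either direction and 1.42% were called higher. Sall4 averaged 25.3 ± 2.10 FPKM in Hoxb13hd and 17.4 ± 1.91 FPKM in wild type (SD, n = 3 each), a log2 fold change of 0.62 with a standard error of 0.12 and an adjusted p of 0.0196. Ptk7 averaged 44.9 ± 1.09 FPKM in Hoxb13hd and 34.8 ± 1.38 FPKM in wild type (SD, n = 3 each), a log2 fold change of 0.42 with a standard error of 0.07 and an adjusted p of 0.0122. All p-values of a gene are from edgeR's quasi-likelihood test with Benjamini-Hochberg adjustment over all genes.

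T, Nkx1-2 and Evx1 had larger and less certain differences between Hoxb13hd and wild type. T had a log2 fold change of 1.26 (95% interval 0.31 to 2.2, adjusted p = 0.135), Nkx1-2 one of 1.11 (0.30 to 1.91, adjusted p = 0.121) and Evx1 one of 1.16 (0.40 to 1.93, adjusted p = 0.0890). Sox3 had 0.41 (-0.01 to 0.82) and Sox2 0.12 (-0.09 to 0.33). The signs were positive for 7 of 7 genes, with a median log2 fold change of 0.62 beside 0.00 over all genes tested. On the CPM scale, T, Nkx1-2, Sall4 and Ptk7 had all Hoxb13hd libraries above all wild type libraries, a pattern that 25.4% of all genes showed in either direction and 12.8% showed as higher.

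The calls of Sall4 and Ptk7 rested on the full set of libraries. Without wild type replicate 1, wild type replicate 3, Hoxb13hd replicate 2 or Hoxb13hd replicate 3, 0 of the 7 genes were called by the same test, with adjusted p of 0.0598 to 0.104 for Sall4 and 0.0528 to 0.0608 for Ptk7. Their fold changes moved little, between 0.55 and 0.73 for Sall4 and between 0.40 and 0.45 for Ptk7 on the log2 scale over the 6 libraries left out in turn. DESeq2 called 4 of the 7, and limma on log2 FPKM called 0 or 1. Settings other than leaving out a library called 129 to 1240 of all genes, beside 517 in the main fit. Fits with 1 library left out called 51 to 676.

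Genes known to act beside the 7 in the tail bud were read in the same comparison. Of 8 posterior progenitor regulators, 5 rose, 0 fell and 3 did not pass, with a median log2 fold change of 1.11. Lin28a, which encodes an RNA-binding protein that blocks let-7 maturation, had 59.1, 68.3 and 61.8 FPKM in Hoxb13hd, against 35.1, 54.8 and 35.2 FPKM in wild type (log2 0.68, adjusted p = 0.0198). Hes3, a Notch-related repressor of progenitors, had 1.27, 2.09 and 1.83 FPKM in Hoxb13hd, against 0.491, 0.896 and 0.437 FPKM in wild type (log2 1.54, adjusted p = 0.0201). In both genes the groups were separate, with wild type replicate 2 the nearest to Hoxb13hd. Sp8 (log2 0.53) and Cdx1 (log2 1.16), factors acting with Wnt signals in the tail bud, rose as well.

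Of 9 signals of the progenitor niche, 2 rose and 7 did not pass, with a median log2 fold change of 0.47. Fgf8, a growth factor that holds caudal cells undifferentiated, had 4.38, 5.62 and 6.09 FPKM in Hoxb13hd, against 3.62, 2.88 and 2.93 FPKM in wild type (log2 0.79, adjusted p = 0.0375). Wnt3a, the ligand that maintains T expression in the tail bud, had 1.86, 2.75 and 3.25 FPKM in Hoxb13hd, against 1.52, 1.77 and 0.945 FPKM in wild type (log2 0.95, adjusted p = 0.0490). Both ligands had separate groups. Of 8 genes of the presomitic mesoderm, the tissue that the progenitors feed, 2 rose, and the median log2 fold change was 1.47. These 2 were Dll1, a Notch ligand (log2 0.41, adjusted p = 0.0273), and Hes7, the segmentation clock repressor (log2 2.04, adjusted p = 0.0370). Of 8 neural tube progenitor genes, 0 were called by edgeR, and their median log2 fold change was 0.43.

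Leaving out 1 library at a time moved these counts between 0 and 7 of the 8 regulators, 0 and 4 of the 9 niche signals, 0 and 3 of the 8 presomitic genes, and 0 and 2 of the 8 neural tube progenitor genes. DESeq2 called 2 of the neural tube genes. Each of these counts was 0 without wild type replicate 1, wild type replicate 3, Hoxb13hd replicate 2 or Hoxb13hd replicate 3. Summed marker levels moved with the comparison. The presomitic genes summed to 32.3 to 39.8 FPKM in Hoxb13hd, against 21 to 26.8 FPKM in wild type, and the regulators to 102 to 121 FPKM in Hoxb13hd, against 67.2 to 97.4 FPKM in wild type. A few genes made up most of each sum. In wild type Dll1 averaged 10.2, Lfng 7.18 and Dll3 4.72 FPKM, and each other presomitic gene at most 1.30 FPKM. Lin28a averaged 41.7 and Lin28b 28.7 FPKM there, and each other regulator at most 3.35 FPKM. The sums are thus not levels of a tissue. The 6 visceral endoderm and liver bud genes summed to 7.66 to 32.4 FPKM in Hoxb13hd, against 52.0 to 161 FPKM in wild type, with Afp the largest part, and 6 of the 6 had negative fold changes. Wild type replicate 3 had the lowest presomitic sum of all 12 and listed Msgn1, a presomitic factor, at 0 FPKM. The part of these tissues in the differences was not tested.

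**Figure D2:**
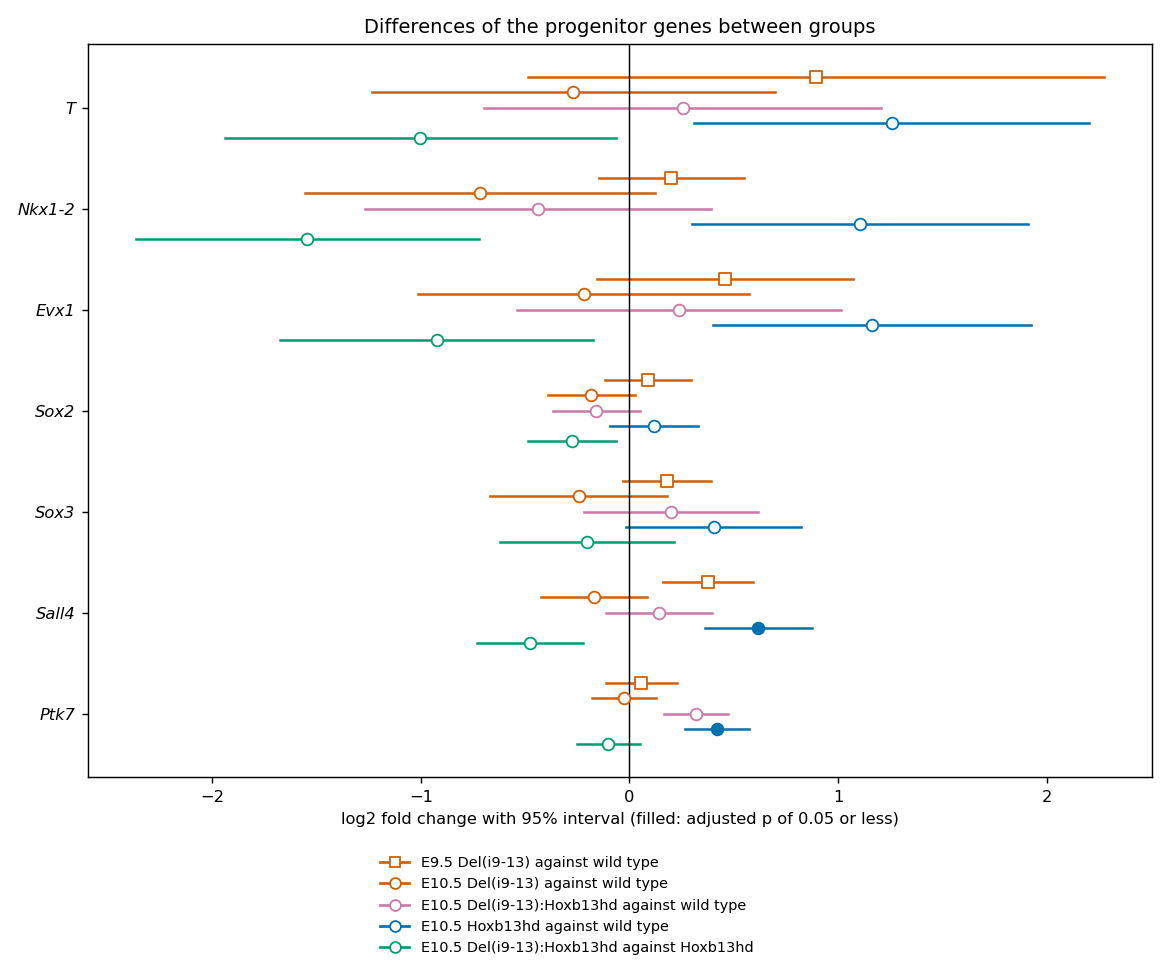
Log2 fold change (x axis) of each gene (y axis) in 5 comparisons, with points for the fitted value, bars for the 95% interval and filled points for an adjusted p of 0.05 or less. Sall4 (0.62) and Ptk7 (0.42) in Hoxb13hd against wild type are the filled points.

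For the deletion on the hd background, Del(i9-13):Hoxb13hd against Hoxb13hd, 0 of 7 genes passed edgeR's test, where 0.959% of all genes did. Nkx1-2 had the largest difference between Del(i9-13):Hoxb13hd and Hoxb13hd, averaging 0.958 ± 0.186 FPKM in Del(i9-13):Hoxb13hd and 2.65 ± 0.498 FPKM in Hoxb13hd (SD, n = 3 each). Its log2 fold change was -1.54 (95% interval -2.36 to -0.72, adjusted p = 0.0735). Sall4 averaged 19.3 ± 0.951 FPKM in Del(i9-13):Hoxb13hd and 25.3 ± 2.10 FPKM in Hoxb13hd (SD, n = 3 each), with a log2 fold change of -0.48 (-0.73 to -0.22, adjusted p = 0.0713).

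The fitted values of T and Evx1 were -1.0 (-1.94 to -0.07) and -0.92 (-1.68 to -0.17) for Del(i9-13):Hoxb13hd against Hoxb13hd, with adjusted p of 0.290 and 0.224. Sox2 had -0.28, Sox3 -0.21 and Ptk7 -0.10. All 7 signs were negative and the median was -0.48, beside -0.01 over all genes tested. By CPM, every gene but Sox3 had all Del(i9-13):Hoxb13hd libraries below all Hoxb13hd libraries, which held for 22.6% of all genes in either direction and 10.3% as lower. By FPKM the Ptk7 libraries overlapped. At an unadjusted p under 0.05 there were 5 of the 7 genes, DESeq2 called 2, limma called 0, and a fit of these 6 libraries alone called 3. The share of all genes at that unadjusted p was not computed. Settings other than leaving out a library called 43 to 658 of all genes, beside 165 in the main fit.

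Among the companion genes of this comparison, 3 of 8 posterior regulators fell. Lin28a had 40.1, 39.2 and 37.1 FPKM in Del(i9-13):Hoxb13hd, against 59.1, 68.3 and 61.8 FPKM in Hoxb13hd (log2 -0.79, adjusted p = 0.0171). Hes3 (log2 -1.79, adjusted p = 0.0191) and Sp8 (log2 -0.55, adjusted p = 0.0446) fell too, as did Sox1, a neural SoxB1 gene and 1 of 8 neural tube progenitor genes (log2 -0.77, adjusted p = 0.0472). Sox1 was called in 1 of 6 fits with 1 library left out, that without Hoxb13hd replicate 1, with adjusted p of up to 0.170 in the others. Of 9 niche signals and 8 presomitic genes, 0 were called by edgeR. With 1 library left out in turn, the count of regulators was 5 without Hoxb13hd replicate 1 and 0 without each of the other 5 libraries. The visceral endoderm and liver genes summed to 77.7 to 102 FPKM in Del(i9-13):Hoxb13hd, against 7.66 to 32.4 FPKM in Hoxb13hd. Nearly all of this was Afp, with means of 81.7 FPKM in Del(i9-13):Hoxb13hd and 18.3 FPKM in Hoxb13hd. Of the 6 genes 3 had positive and 3 negative fold changes, with a median log2 fold change of 0.15, and their part was not tested.

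In embryos with the deletion alone at E10.5, 0 of the 7 genes were called against wild type by edgeR, where 0.488% of genes were called. None had an unadjusted p under 0.05, and DESeq2 and limma also called 0. The fitted log2 fold changes ran from -0.72 for Nkx1-2 (95% interval -1.56 to 0.12) to -0.03 for Ptk7 (-0.18 to 0.13), with a median of -0.22. T had -0.27 (-1.24 to 0.70), an interval that holds both a fall and a rise. By CPM no gene had separate groups, which 13% of all genes had. By FPKM the Sox2 groups were separate by a narrow margin, all 3 Del(i9-13) libraries lying below all 3 wild type libraries. The nearest were Del(i9-13) replicate 2 at 16.81 FPKM and wild type replicate 1 at 16.99 FPKM. The share of all genes with separate groups by FPKM was not computed. The visceral endoderm and liver genes had 6 of 6 positive fold changes, summing to 88.8 to 450 FPKM in Del(i9-13), against 52.0 to 161 FPKM in wild type, and their part was not tested. Without wild type replicate 2, the fitted values of T and Evx1 turned positive, at 0.029 and 0.085.

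Del(i9-13):Hoxb13hd against wild type gave 0 of 7 calls by edgeR beside 0.401% of all genes, 1 of 7 at an unadjusted p under 0.05, 1 by DESeq2 and 0 by limma. That gene was Ptk7, which averaged 44.2 ± 2.08 FPKM in Del(i9-13):Hoxb13hd and 34.8 ± 1.38 FPKM in wild type (SD, n = 3 each), with a log2 fold change of 0.32 (95% interval 0.17 to 0.47, adjusted p = 0.0834). It was also the single gene of the 7 whose CPM groups were separate, against 21.5% of all genes in either direction and 11.2% as higher. Settings other than leaving out a library called 26 to 326 of all genes, beside 69 in the main fit. The share of all genes at that unadjusted p was not computed. T had 0.26, Evx1 0.24, Sox3 0.20, Sall4 0.14, Sox2 -0.16 and Nkx1-2 -0.44. The visceral endoderm and liver genes had 5 of 6 negative fold changes, summing to 77.7 to 102 FPKM in Del(i9-13):Hoxb13hd, against 52.0 to 161 FPKM in wild type, and their part was not tested.

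Set against Del(i9-13), Del(i9-13):Hoxb13hd had a higher level of Ptk7, 1 of 7 genes called beside 0.907% of all genes in either direction and 0.546% as higher. Ptk7 averaged 44.2 ± 2.08 FPKM in Del(i9-13):Hoxb13hd and 34.2 ± 3.18 FPKM in Del(i9-13) (SD, n = 3 each), with a log2 fold change of 0.34, a standard error of 0.07 and an adjusted p of 0.0426. The call was lost without each of 5 libraries, namely Del(i9-13) replicates 2 and 3 and Del(i9-13):Hoxb13hd replicates 1, 2 and 3, with adjusted p of 0.1 to 0.176. It was also lost in a fit of these 6 libraries alone, with an adjusted p of 0.207. Fits with 1 library left out called 58 to 1453 of all genes, beside 156 in the main fit. T (0.52), Evx1 (0.46), Sox3 (0.44), Sall4 (0.31), Nkx1-2 (0.28) and Sox2 (0.02) did not pass. By CPM, T, Sox3, Sall4, Evx1 and Ptk7 had all Del(i9-13):Hoxb13hd libraries above all Del(i9-13) libraries, a pattern of 20.3% of all genes in either direction and 11.3% as higher. The 6 visceral endoderm and liver genes had 6 of 6 negative fold changes here, with a median log2 fold change of -3.85. They summed to 77.7 to 102 FPKM in Del(i9-13):Hoxb13hd, against 450, 102 and 88.8 FPKM in Del(i9-13), and their part was not tested. The comparisons above share groups, so their values are not independent of each other.

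Across both backgrounds, the mean of the deletion groups was compared with the mean of the groups without it. By edgeR 0 of 7 genes were called beside 0.5% of all genes, 4 of 7 had an unadjusted p under 0.05, DESeq2 called 2 and limma 0. The share of all genes at that unadjusted p was not computed. Settings other than leaving out a library called 38 to 389 of all genes, beside 86 in the main fit. Nkx1-2 had a log2 difference of -1.13 (95% interval -1.72 to -0.54, adjusted p = 0.106), Sall4 -0.32 (-0.50 to -0.14, adjusted p = 0.122) and Sox2 -0.23 (-0.38 to -0.08, adjusted p = 0.171). T had -0.64 (-1.31 to 0.04), Evx1 -0.57, Sox3 -0.22 and Ptk7 -0.06. By FPKM all 6 deletion libraries had less Sox2 than all 6 without the deletion, by a narrow margin. The nearest were Del(i9-13):Hoxb13hd replicate 1 at 16.93 FPKM and wild type replicate 1 at 16.99 FPKM. By CPM the Sox2 libraries overlapped, and the share of all genes split in this way by FPKM was not computed. Without wild type replicate 3, 2 of the 7 were called, and without Del(i9-13) replicate 1, 1 was called. Fits with 1 library left out called 21 to 353 of all genes, beside 86 in the main fit.

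An interaction term asked if the deletion effect depended on the hd change, and 0 of 7 genes passed edgeR's test, beside 0.523% of all genes. None had an unadjusted p under 0.05, and DESeq2 and limma called 0. The interaction was -0.83 for Nkx1-2 (95% interval -2.0 to 0.34), -0.73 for T (-2.08 to 0.61), -0.71 for Evx1 (-1.80 to 0.39) and -0.31 for Sall4 (-0.67 to 0.05) on the log2 scale. Each of these intervals held 0, and each also held values as large as the fitted deletion effects. A deletion effect that depends on the hd change was thus not detectable, nor was its absence shown.

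At E9.5 the 7 genes had positive log2 fold changes in Del(i9-13) relative to wild type, but 0 of 7 were called by edgeR, beside 0.362% of all genes. The unadjusted p was under 0.05 for 1 of the 7, DESeq2 called 1 and limma 0, the gene being Sall4 for both counts of 1. Settings other than leaving out a library called 9 to 537 of all genes, beside 58 in the main fit. The share of all genes at that unadjusted p was not computed. Sall4 averaged 29.8 ± 2.26 FPKM in Del(i9-13) and 22.0 ± 2.61 FPKM in wild type (SD, n = 3 each), a log2 fold change of 0.38 (95% interval 0.16 to 0.59, adjusted p = 0.201). T averaged 25.0 ± 0.518 FPKM in Del(i9-13) and 13.2 ± 7.0 FPKM in wild type (SD, n = 3 each), a log2 fold change of 0.90 (-0.49 to 2.28, adjusted p = 0.582). T and Sall4 had separate groups, both higher in Del(i9-13), which 18.9% of all genes had in either direction and 9.06% as higher.

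The E9.5 result for T turned on wild type replicate 1. Without it, T was called, with a smaller log2 fold change of 0.50 and an adjusted p of 0.0475. Fits with 1 library left out called 40 to 53 of all genes, beside 58 in the main fit. Wild type replicate 1 had 3.07 FPKM of Fgf8 and 2.31 FPKM of Msgn1, against 7.25 and 6.03 FPKM of Fgf8 and 11 and 7.19 FPKM of Msgn1 in wild type replicates 2 and 3. Its niche signals summed to 42.8 FPKM, against 64.6 and 66.0 FPKM in the other two, and its presomitic genes to 41.0 FPKM, against 52.9 and 54.1 FPKM. It was also the single wild type library with little Xist, at 0.0726 FPKM beside 101 and 112 FPKM, and all 3 Del(i9-13) libraries had at most 0.0680 FPKM. With Xist as a covariate T was called at a log2 fold change of 2.34 and an adjusted p of 2.0e-04, a fit in which the low wild type library alone stands for wild type at low Xist. The part of embryo sex in the difference was not tested beyond this fit.

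No other gene of the 7 had separate groups at E9.5. Evx1 had 0.46 (95% interval -0.16 to 1.07), Nkx1-2 0.20 (-0.15 to 0.55), Sox3 0.18 (-0.03 to 0.39), Sox2 0.09 (-0.12 to 0.29) and Ptk7 0.06 (-0.11 to 0.23) on the log2 scale. In the lists of niche signals, posterior regulators, presomitic genes and neural tube progenitors, 0 genes were called by edgeR at E9.5, with medians of 0.27, 0.27, -0.05 and 0.01. Other settings gave a few calls there. Without a filter on low counts edgeR called 1 niche signal lower and 2 regulators, 1 in each direction, while DESeq2 called 1 niche signal lower and 3 regulators, 2 higher and 1 lower. With Xist as a covariate 1 niche signal, 1 regulator and 1 presomitic gene were called higher. Hes3 had 2.06, 2.16 and 2.73 FPKM in Del(i9-13), against 4.75, 3.34 and 4.50 FPKM in wild type (log2 -0.85, adjusted p = 0.133), the sign opposite to that of the 7 genes. It was the 1 regulator of 8 with a negative fold change, and 7 had a positive one. The visceral endoderm and liver genes summed to 34.5 to 315 FPKM in Del(i9-13), against 8.43 to 36.0 FPKM in wild type, with 6 of 6 fold changes positive, and their part was not tested.

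The deletion effect at E9.5 minus that at E10.5 was positive for 7 of 7 genes, with 0 called by edgeR beside 0.0453% of all genes. Sall4 had a difference of 0.53 (95% interval 0.11 to 0.95, adjusted p = 0.585), T one of 1.14 (-0.71 to 3.00) and Nkx1-2 one of 0.90 (-0.28 to 2.07). Sall4 was the 1 gene with an unadjusted p under 0.05, and DESeq2 and limma called 0. Library type cancels in this difference only if it acted alike in both genotypes.

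**Figure D3:**
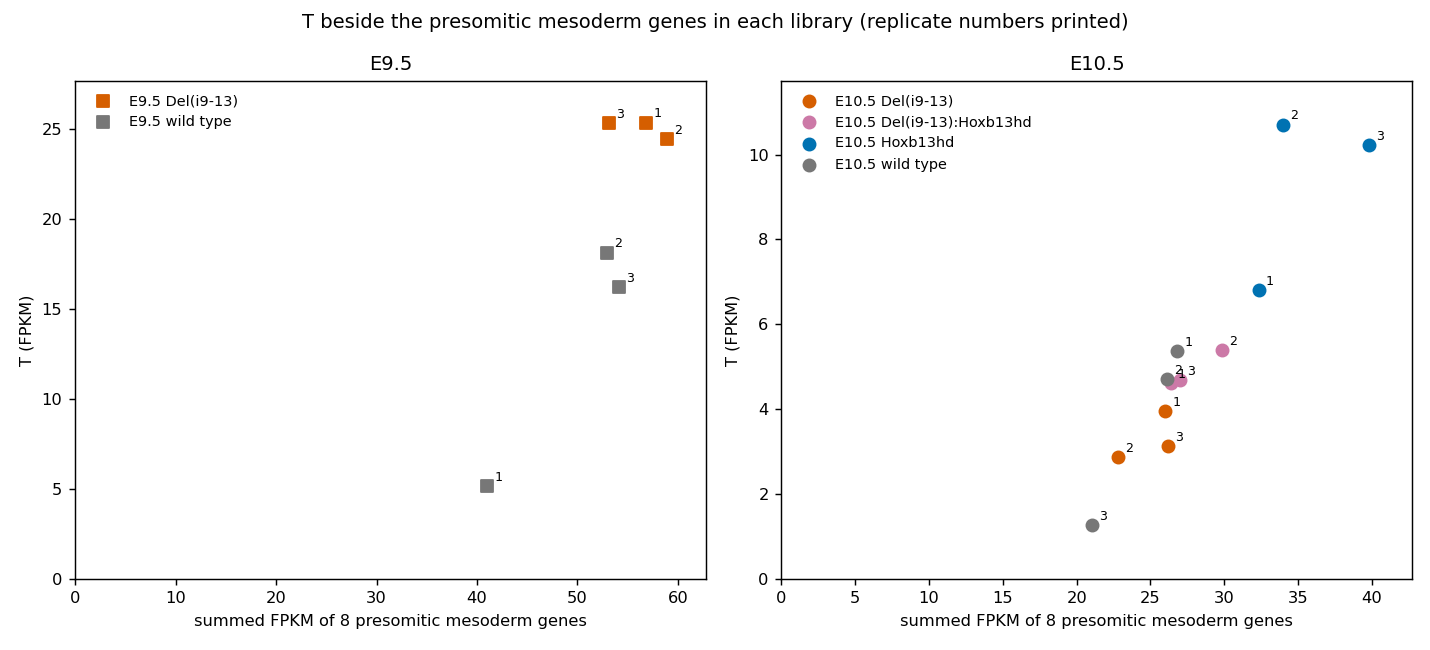
T in FPKM (y axis) against the summed FPKM of 8 presomitic mesoderm genes (x axis) in each library at E9.5 (left) and E10.5 (right), with replicate numbers beside the points. Wild type replicate 1 at E9.5 (41.0 FPKM summed) and wild type replicate 3 at E10.5 (21 FPKM summed) are low on both axes, and the 3 Hoxb13hd libraries are high on both. Dll1, Lfng and Dll3 make up most of the summed level at E10.5.

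Pairs of the 7 genes were compared for how they varied between libraries. Across the 12 E10.5 libraries, Pearson correlations of log2(CPM + 1) were positive for all 21 pairs, and 14 passed a permutation test adjusted over the 21 pairs. The share of pairs of other genes that would pass was not computed, so the count is not shown to be particular to these genes. The permutation took the 12 libraries as free of each other, although they come in genotype groups. Differences shared between groups can thus make these p-values too small. T and Evx1 had r = 0.93 and Spearman's rho = 0.94 (adjusted permutation p of 3.1e-04 and 4.2e-04). Nkx1-2 and Evx1 had r = 0.92 and rho = 0.91 (adjusted permutation p of 2.1e-04 and 5.2e-04), and Sall4 and Ptk7 had r = 0.88 and rho = 0.92 (adjusted permutation p of 3.7e-04 and 4.2e-04). Without the 2 libraries farthest from the median of the first gene, these 3 values of r were 0.93, 0.81 and 0.84. The Hoxb13hd libraries stand apart in T, Nkx1-2 and Sall4, and without them r was 0.89, 0.81 and 0.79 over 9 libraries. Other passing pairs fell further without Hoxb13hd, as r for T and Nkx1-2 was 0.68 in place of 0.87, for Nkx1-2 and Sall4 0.54 in place of 0.85, for T and Sall4 0.43 in place of 0.76, and for Nkx1-2 and Ptk7 0.21 in place of 0.64. The count of 14 pairs thus rests in part on the Hoxb13hd libraries.

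After the group means were subtracted, 5 of the 21 pairs passed, 3 of them among T, Nkx1-2 and Evx1. The permutation treated the 12 deviations as free values, although those of a group sum to 0. The p-values of this paragraph are therefore too small, and the count of 5 may be too high. These had r of 0.82 for T and Nkx1-2, 0.83 for T and Evx1 and 0.88 for Nkx1-2 and Evx1, with adjusted permutation p of 0.0084, 9.4e-04 and 8.4e-04. Sox2 and Sox3 had r = 0.74 (adjusted permutation p = 0.0230), and Sall4 and Ptk7 had r = 0.81 (adjusted permutation p = 0.0084). None of the other 16 pairs passed. Their r ran from -0.35 for Sox2 and Ptk7 to 0.54 for Nkx1-2 and Sall4, with 0.52 for Evx1 and Ptk7, 0.49 for Sall4 and Evx1 and 0.47 for T and Ptk7, so T, Nkx1-2 and Evx1 were not shown to vary apart from Sall4 and Ptk7. For Sox2 and Sox3 over all 12 libraries r was 0.70, and it was 0.41 without the 2 libraries farthest from the median of Sox2, so that the relation rests in part on those 2.

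**Figure D4:**
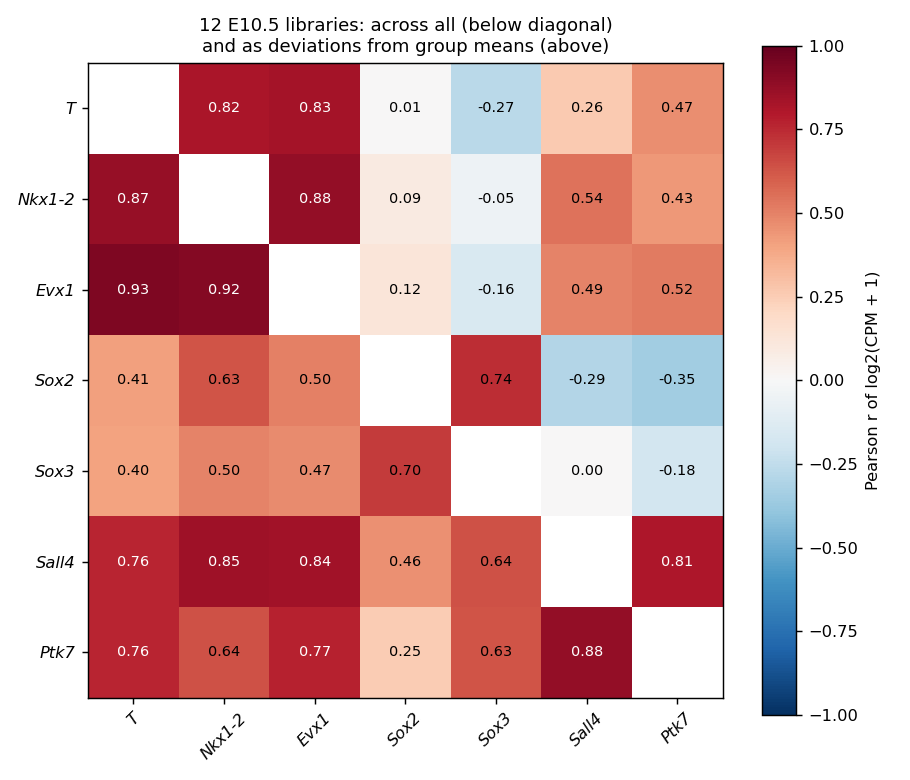
Pearson r of log2(CPM + 1) for each pair of the 7 genes (both axes) over the 12 E10.5 libraries, across all libraries below the diagonal and as deviations from group means above it. Above the diagonal the high values are those among T, Nkx1-2 and Evx1 (0.82 to 0.88), Sox2 with Sox3 (0.74) and Sall4 with Ptk7 (0.81).

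At E9.5, with 6 libraries, r was 0.94 for T and Nkx1-2, 0.96 for T and Evx1, 0.93 for Nkx1-2 and Evx1, and 0.83 for Sox2 and Sox3. Sall4 and Ptk7 had r = 0.55 there. The first 3 values share the low wild type replicate 1, and no test was made on them.

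Among 12997 genes, those most like each member over the 12 E10.5 libraries were found by Pearson correlation of log2(CPM + 1), given as a description. T was closest to Fgf17 (0.97), a tail bud growth factor, Tbx6 (0.96), the presomitic T-box factor, and Cdx4 (0.95), a caudal homeobox factor. Nkx1-2 was closest to Cdx2 (0.96), Shf (0.95) and Cdx4 (0.95), and Evx1 to Cdx2 (0.96), Fgf17 (0.94) and its antisense neighbour Evx1os (0.94). The genes most like T, Nkx1-2 and Evx1 thus included several named in the companion lists.

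Sox2 was closest to Ildr2 (0.95), Pax6 (0.93), a neural tube homeobox factor, and Ak4 (0.90), and Sox3 to Dbx1 (0.93), a factor of intermediate neural tube progenitors, Trip10 (0.91) and Irx3 (0.91). Sall4 was closest to Tsr1 (0.98), Arid3b (0.98) and Bend3 (0.97), and Ptk7 to Rpap1 (0.97), Smoc1 (0.96) and Cactin (0.96). These libraries share genotype groups, tissue make-up and depth, which such values cannot separate.

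Counting is a possible source of uncertainty for 3 of the 7 genes. On the opposite strand, Gm16764 shares 16.6% of the exonic bases of Nkx1-2, Gm14261 shares 9.5% of those of Sall4, and Evx1os shares 2.54% of those of Evx1, while no gene shares exonic bases with a member on the same strand. The kits were stranded per the labels' protocols, and the strand setting of the counting was not found in the labels. Evx1os averaged 2.01 ± 0.431 FPKM in Hoxb13hd and 0.761 ± 0.357 FPKM in wild type at E10.5 (SD, n = 3 each), the same order as Evx1. Sox2 and Sox3 shared 0 windows of 50 bases with each other, and Ptk7 shared 1 such window with other genes.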

How the data were processed

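Counts and FPKM (a level corrected for transcript length and library size) were deposited by the authors per Ensembl gene, for 55141 and 55138 genes. The submitters' processing notes name cutadapt 1.18, STAR 2.7.10a with mm10, and Cufflinks 2.2.1, and the file holding the deposited FPKM is named for Cufflinks and that of the counts for HTSeq. No label gives the strand setting of the counting. Coordinates are those of the FPKM table in mm10, and overlaps come from GENCODE M21.

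The deposited counts were fitted with edgeR 4.0.16 in R 4.3.3 (filterByExpr with a minimum count of 10 and total of 15, TMM scaling, robust quasi-likelihood) on the 6 E9.5 libraries, the 12 E10.5 libraries and, for the stage difference, the 12 wild type and Del(i9-13) libraries. These fits tested 16041, 17202 and 17670 genes, and all 7 members passed the filter in each. Genes were called at a Benjamini-Hochberg adjusted p of 0.05. Counts of members at an unadjusted p under 0.05 have no share of all genes beside them, as it was not computed. CPM are counts scaled with TMM factors. Standard errors are the log2 fold change over the square root of F. Overlap of groups was judged on CPM for all counts given with a share of all genes. Correlations used 100000 permutations, two-sided, and both levels and deviations from group means were permuted across all libraries without regard to group. The scripts were tested on simulated data.

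Counting error was smaller than replicate spread: the chi-square of replicates per degree of freedom was 9.71 to 50.8, so no libraries were counted as 1. Alternatives were RLE scaling, other filters, DESeq2 1.42.0, limma 3.58.1 on log2 FPKM, a replicate block, Xist as a covariate, fits of the compared groups alone and leaving out each library. The 7 genes and the companion lists were chosen with earlier results of these data known, and the promoter words after the sequences were seen. Correlations without the Hoxb13hd libraries and the ranges of list counts were added after seeing the data. Up to 4 called genes with the smallest p were named from each list, and otherwise up to 3. Lists of notochord, interneuron, limb, germ cell, neural crest and visceral endoderm genes had 0 called genes in every comparison.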

Additional observations from a re-analysis of the deposited data

How the results depend on the processing

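Of the 7 genes, the number called changed with the tool. At E9.5 it was 1, in place of 0, without a filter on low counts, with DESeq2 and with Xist as a covariate. For Del(i9-13):Hoxb13hd against wild type it was 1, in place of 0, with DESeq2 and in a fit of the groups compared. For Hoxb13hd against wild type it was 4, in place of 2, with DESeq2, 1 with limma at either pseudocount (0.1 or 1) after the filter, and 0 with limma without it. For Del(i9-13):Hoxb13hd against Hoxb13hd it was 2 with DESeq2, 1 with Xist as a covariate and 3 in a fit of the groups compared, in place of 0. For Del(i9-13):Hoxb13hd against Del(i9-13) it was 0, in place of 1, with limma without the filter, with the replicate block and in a fit of the groups compared. For the pooled deletion it was 2 with DESeq2 and 1 with Xist as a covariate, in place of 0. Correlated pairs numbered 5 as deviations from group means and 10 on log2(FPKM + 1), in place of 14. Leaving out 1 library gave 0 to 1 calls at E9.5, 0 to 3 for Hoxb13hd against wild type, 0 to 2 for Del(i9-13):Hoxb13hd against Del(i9-13), 0 to 2 for the pooled deletion, and 0 in the other comparisons. The cause was not tested. Signs turned for small values. The log2 value of Sox2 at E9.5 was -0.0037 with Xist as a covariate, and T in E10.5 Del(i9-13) against wild type was 0.040 with limma at a pseudocount of 0.1. The interaction of Sox2 was 0.012 (0.011 at a pseudocount of 1) and that of Ptk7 0.0033 (0.0030) with limma. With 1 library left out, values that changed sign ran as follows. In E9.5 Del(i9-13) against wild type they were -0.0020 to 0.17 for Sox2. In E10.5 Del(i9-13) against wild type they were -0.70 to 0.029 for T, -0.53 to 0.085 for Evx1, -0.11 to 0.028 for Ptk7. In E10.5 Del(i9-13):Hoxb13hd against wild type they were -0.77 to 0.094 for Nkx1-2, -0.17 to 0.56 for T, -0.063 to 0.55 for Evx1. In E10.5 Hoxb13hd against wild type they were -0.0017 to 0.20 for Sox2. In E10.5 Del(i9-13):Hoxb13hd against Del(i9-13) they were -0.019 to 0.062 for Sox2. In the E10.5 interaction they were -0.096 to 0.24 for Sox3, -0.12 to 0.015 for Ptk7, -0.16 to 0.036 for Sox2. Over all genes, calls ran from 9 to 537 (58 as reported) at E9.5, 40 to 285 (84) for E10.5 Del(i9-13) against wild type, 14 to 326 (69) for Del(i9-13):Hoxb13hd against wild type, 51 to 1240 (517) for Hoxb13hd against wild type, 36 to 658 (165) for Del(i9-13):Hoxb13hd against Hoxb13hd, 58 to 1453 (156) for Del(i9-13):Hoxb13hd against Del(i9-13), 21 to 389 (86) for the pooled deletion, 40 to 297 (90) for the interaction and 2 to 88 (8) for the stage difference. Same-numbered replicates did not deviate together at E10.5, where 6 of 18 such pairs had r over 0.1, beside 14 of 36 pairs of different numbers. At E9.5 these were 2 of 3 and 1 of 6, too few pairs to decide. In all, 3 of 6 libraries at E9.5 and 4 of 12 at E10.5 correlated best with their own number. The block was therefore read as a number alone. With it, 2 of the 7 genes were called for Hoxb13hd against wild type and 0 in each other comparison. Evx1 was removed by the FPKM filter at E10.5.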

Other observations

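Lhx2, a LIM homeobox factor of forebrain, eye and limb bud, was called higher in E10.5 Del(i9-13):Hoxb13hd than in Hoxb13hd, where the 7 progenitor genes had negative fold changes. It had 8.56, 9.02 and 10.3 FPKM in Del(i9-13):Hoxb13hd, against 4.78, 5.10 and 5.57 FPKM in Hoxb13hd, a fitted log2 fold change of 0.51 with an adjusted p of 0.0359 by edgeR. The groups were separate, and Del(i9-13) libraries had 7.72, 8.20 and 6.99 FPKM, against 5.96, 4.95 and 5.75 FPKM in wild type (edgeR adjusted p = 0.0551). At E9.5 the order was the other way, with 3.30, 2.42 and 1.48 FPKM in Del(i9-13), against 4.46, 4.70 and 5.29 FPKM in wild type (log2 -0.85, edgeR adjusted p = 0.201). The gene was singled out after its values were seen.

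Lin28b, the paralogue of Lin28a, fell in the mean of the E10.5 deletion groups relative to the groups without it (log2 -0.27, edgeR adjusted p = 0.0490). It had 24.9, 25.0 and 25.2 FPKM in Del(i9-13) and 25.5, 25.8 and 25.3 FPKM in Del(i9-13):Hoxb13hd, against 29.0, 32.7 and 29.4 FPKM in Hoxb13hd and 28.7, 31.3 and 26.2 FPKM in wild type. All 6 deletion libraries lay below the other 6 by FPKM, and the call held in 3 of 12 fits with 1 library left out. The nearest values were 25.8 FPKM in Del(i9-13):Hoxb13hd and 26.2 FPKM in wild type. This split was read by FPKM only, and the share of all genes with such a split was not computed.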
